A study of Mus musculus with 6 samples.

Results

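The Hox genes of the embryonic mouse bladder were read on arrays in 2 genotypes. Members were all genes of the array annotation whose single symbol is Hoxa, Hoxb, Hoxc or Hoxd followed by a number, which gave 37 of the 19938 genes tested: 10 Hoxa, 9 Hoxb, 9 Hoxc and 9 Hoxd genes. Each was read by a single feature. Total RNA came from bladders of E14.5 embryos (embryonic age in days), with 3 samples per genotype, 1 array per sample and 2 bladders pooled per sample. One group carried Klf5 ∆/∆, a deletion on both alleles of Klf5, which encodes a zinc-finger transcription factor of epithelia. The control group was Klf5+/+ShhGfpCre+, with intact Klf5 and ShhGfpCre, an allele that drives Cre recombinase from the Shh gene, which the bladder epithelium expresses; the genotype label of the deleted group names no Cre. The labels give the source both as urothelium and as whole bladder. The 3 arrays of a group measure the spread between pools, and the labels do not say whether pools came from separate litters.

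Hox genes encode homeodomain transcription factors and lie in 4 clusters that arose by duplication, so that a gene has paralogs of the same number in the other clusters. Their order along a cluster follows the order in which they are used along the body axis: low numbers act in the hindbrain and neck, high numbers toward the tail. Group 13 marks the most caudal trunk, and Hoxa13 and Hoxd13 are known to be needed for the urogenital sinus, from which the bladder forms, and for the hindgut and genital tubercle. The comparison made here is of each Hox reading between the genotypes.

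The arrays were read first for the deleted gene and for the tissue. Klf5 read 10.12, 10.34 and 10.23 on Klf5-deleted arrays 1, 2 and 3 and 10.84, 10.63 and 10.97 on control arrays 1, 2 and 3. It fell by 0.59 on the log2 scale (SE 0.10, adjusted p = 0.0381 by limma), without overlap, and did not pass without any 1 of the arrays other than control 2 (adjusted p from 0.0847 to 0.156 by limma); which part of the gene its feature covers was not analysed here. All 15 urothelial markers differed downward, and 10 of them fell past the threshold. The mean of the urothelial list was 9.44 to 9.67 on the Klf5-deleted arrays and 10.84 to 11.09 on the controls, that of 8 smooth muscle markers 12.28 to 12.50 and 12.50 to 12.79, and that of 8 mesenchymal markers 12.46 to 12.55 and 12.51 to 12.62. Of 5 mesothelial markers, Wt1 rose and Msln and Krt19, a keratin that urothelium also makes, fell, with differences of 0.54, -1.42 and -1.46 (adjusted p = 0.0409, 0.0014 and 0.00694 by limma). The mean of that list was 9.64 to 9.74 on the Klf5-deleted arrays and 10.02 to 10.28 on the controls. Its members Krt19 and Upk3b are also in the urothelial list. The part of these shifts in the Hox differences was not tested. None of 12 skeletal muscle markers passed, but all 12 differed upward (median 0.75), and the mean of that list was 9.15, 9.52 and 10.25 on Klf5-deleted arrays 1, 2 and 3 and 8.53, 9.49 and 8.78 on control arrays 1, 2 and 3. The mean of 7 placental and decidual markers ran from 5.51 to 10.47 over the arrays, with the highest value on control 2. In RNA from whole organs, fewer cells of a type and less RNA per cell cannot be told apart.

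Of 37 Hox genes, 0 rose and 0 fell at an adjusted p of 0.05, against 1.98% of all genes tested, 0.386% higher and 1.59% lower (limma, with Benjamini-Hochberg adjustment over all 19938 genes; the count was also 0 with a variance trend in limma). At an unadjusted p under 0.05, 13 of 37 Hox genes were higher in the Klf5-deleted bladders, where 6.34% of all genes were, and 0 were lower, where 8.08% of all genes were. For 11 Hox genes every Klf5-deleted array read above every control array, against 8.67% of all genes; for 0 Hox genes every Klf5-deleted array read below, against 11.8% of all genes. The difference was above 0 for 27 of 37 Hox genes and for 46.5% of all genes. The median Hox difference was 0.0997, beside -0.00993 over all genes, and it was 0.154 without Klf5-deleted 1. These members lie next to each other in clusters and were read on the same 6 arrays, so they are not independent observations.

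**Figure D1:**
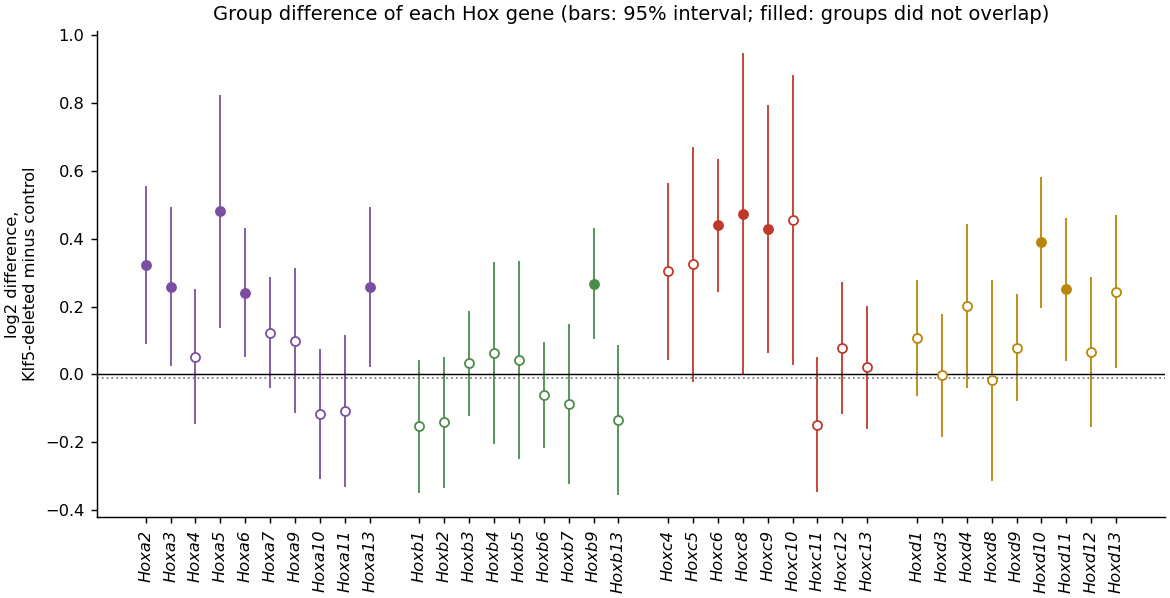
Group difference of the 37 Hox genes, Klf5-deleted minus control, on the log2 scale (vertical axis), ordered by cluster and paralog number (horizontal axis), with 95% confidence intervals from limma on 3 arrays per group. Filled points mark the 11 genes whose groups did not overlap and the dotted line the median of all genes; Hoxa5, at 0.48, and Hoxc8, at 0.47, lie farthest above 0, and the lowest difference is -0.15, that of Hoxb1.

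The count of passing genes turned on how the arrays were scaled. Centring each array on the median of its 10 measured housekeeping genes moved the median of all genes to 0.207 and placed 15 Hox genes past the threshold, all higher, against 8.51% of all genes; 24 of 37 Hox genes then read above every control array, against 41.3% of all genes. The array medians of that list were set by Pgk1 with B2m, or on Klf5-deleted 3 by Sdha with Pgk1, and Pgk1 and B2m themselves differed by -0.20 and -0.28. When each array was instead shifted by the median deviation of the 10 genes from their own means, a setting added after the data were seen, the median of all genes was 0.000584 and 1 Hox gene, Hoxc6, passed (adjusted p = 0.0487 by limma). The Hox median lay 0.110 above the median of all genes, and 28 of 37 Hox genes lay above it. Each of these scalings moves all genes of an array by 1 amount, so both values are the same in all of them by construction.

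By cluster, 8 of 9 Hoxc genes and 8 of 10 Hoxa genes differed upward, with medians of 0.324 and 0.182, and 7 of 9 Hoxd genes did, with a median of 0.107. Only 4 of 9 Hoxb genes did, with a median of -0.0600, or 0.157 with arrays centred on the median of the housekeeping genes. By paralog number, 4 of 7 genes of groups 1 to 3 differed upward (median 0.0324), 11 of 14 of groups 4 to 8 (median 0.162) and 12 of 16 of groups 9 to 13 (median 0.0891). These medians turned on single arrays and on the setting. Without control 1 the median of groups 1 to 3 was -0.00617, and without control 2 it was 0.0704; that of groups 9 to 13 was 0.0415 without Klf5-deleted 2 and 0.152 without Klf5-deleted 1. The Hoxb median was -0.0288 without Klf5-deleted 2 and -0.0974 without control 1. With arrays centred on the median of the housekeeping genes, the Hoxa, Hoxc and Hoxd medians were 0.399, 0.541 and 0.324, and those of groups 1 to 3, 4 to 8 and 9 to 13 were 0.249, 0.379 and 0.306. Among brighter genes alone, the Hoxa, Hoxb and Hoxd medians were 0.0997, 0.150 and 0.244. Those of groups 4 to 8 and 9 to 13 were 0.0529 and 0.244. This filter dropped dim members and left the difference of each remaining gene unchanged. Of Hoxb it kept only Hoxb3, at 0.0324, and Hoxb9, at 0.267. Of groups 4 to 8 it kept only Hoxa7, at 0.123, and Hoxd8, at -0.0167. The filtered medians therefore do not show a cluster changing sign. No gene of any cluster or paralog range passed the threshold, and the differences between clusters were not tested. Averaged over the genes of a cluster, the 9 Hoxd genes read 9.03, 9.14 and 8.99 on the Klf5-deleted arrays and 8.96, 8.84 and 8.93 on the control arrays. The 10 Hoxa genes averaged 8.65, 8.72 and 8.78 against 8.53, 8.54 and 8.59. Neither pair of groups overlapped, but the margins were narrow, at 8.99 against 8.96 for Hoxd and 8.65 against 8.59 for Hoxa. The 9 Hoxc genes averaged 7.30, 7.43 and 7.63 against 7.10, 7.28 and 7.19, with less than 0.02 between the lowest Klf5-deleted and the highest control average. The Hoxb average did overlap, with 7.86, 7.92 and 7.93 against 7.83, 7.91 and 8.01.

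**Figure D2:**
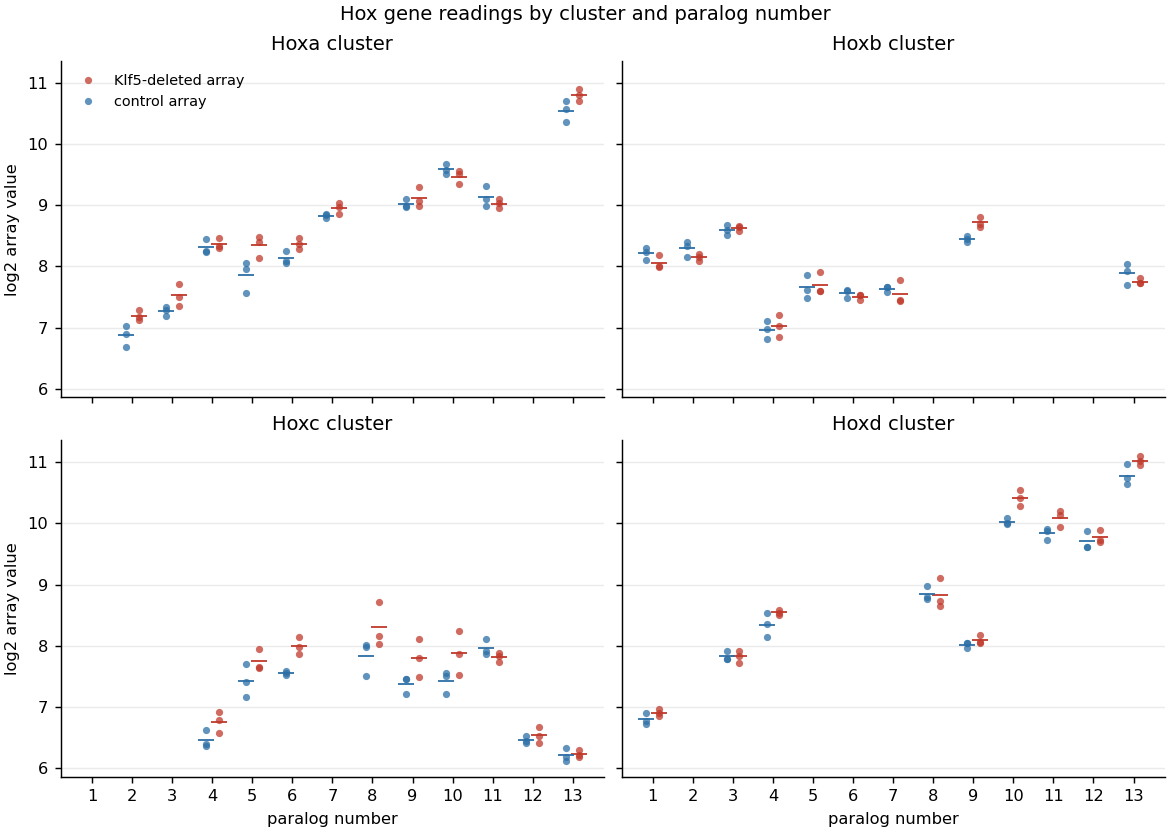
Log2 array value (vertical axis) of each Hox gene by paralog number (horizontal axis), 1 panel per cluster, with 1 point per array (red, 3 Klf5-deleted; blue, 3 control) and short lines at the group means. Readings of Hoxa13 and Hoxd13 lay between 10.36 and 11.10 and those of Hoxc12 and Hoxc13 between 6.11 and 6.68; the groups sit close together at every position relative to the range of each panel.

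The figure of levels by paralog number shows log2 readings, and a reading depends on how well the probes of a feature bind as well as on the transcript. The readings of different genes were therefore listed and not ranked. The deposited values carry no detection call, so whether a feature was above background was not established. Within the Hoxa cluster the readings over all arrays ran from 6.69 to 10.90, within Hoxb from 6.81 to 8.81, within Hoxc from 6.11 to 8.71 and within Hoxd from 6.72 to 11.10.

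The posterior Hoxd genes, which pattern the lower trunk, limbs and genital tubercle, held the second smallest adjusted p of the family. Hoxd10 read 10.42, 10.55 and 10.28 on the Klf5-deleted arrays and 10.01, 9.996 and 10.09 on the controls. The lowest Klf5-deleted reading was thus above the highest control reading, and the difference was 0.39 (95% confidence interval 0.20 to 0.58, SE 0.08, adjusted p = 0.0704 by limma). Its neighbour Hoxd11 read 10.14, 10.20 and 9.94 against 9.88, 9.73 and 9.91, without overlap and with a difference of 0.25 (SE 0.09, adjusted p = 0.268 by limma). Hoxd12 read 9.70, 9.88 and 9.73 against 9.87, 9.62 and 9.62, and these groups overlapped, with a difference of 0.07 (95% confidence interval -0.15 to 0.29), or 0.00832 without Klf5-deleted 2. Hoxd9 read 8.04, 8.18 and 8.06 against 8.04, 7.96 and 8.05 and differed by 0.08 (95% confidence interval -0.08 to 0.24), or 0.0363 without Klf5-deleted 2. All 5 posterior Hoxd genes, Hoxd9 to Hoxd13, differed upward and none passed.

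Group 13, the terminal group of the positional code, was read from all 4 clusters. Hoxd13 read 11.02, 11.10 and 10.95 on the Klf5-deleted arrays and 10.97, 10.64 and 10.74 on the controls, so that only control 1 lay within the Klf5-deleted range; the difference was 0.24 (95% confidence interval 0.02 to 0.47, adjusted p = 0.31 by limma). Hoxa13 read 10.90, 10.80 and 10.70 against 10.70, 10.36 and 10.57, with a difference of 0.26 (95% confidence interval 0.02 to 0.49, adjusted p = 0.302 by limma). Without control 2 the difference of Hoxa13 was 0.166. Its groups just failed to overlap, Klf5-deleted 3 being 10.704 and control 1 10.696. Hoxb13, known from the prostate and the tail bud, read 7.73, 7.80 and 7.73 against 7.92, 7.70 and 8.04. Its difference was -0.13 (95% confidence interval -0.35 to 0.09), or -0.0554 without control 3, and was 0.08 with arrays centred on the median of the housekeeping genes. Hoxc13, known from hair and nails, read 6.30, 6.18 and 6.22 against 6.33, 6.19 and 6.11, and the groups overlapped throughout, with a difference of 0.02 (95% confidence interval -0.16 to 0.20).

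The proximal promoters of Hoxd10, the posterior gene with the smallest adjusted p, and of Hoxa13 and Hoxd13 of group 13 are shown because Krüppel-like factors, the family of Klf5, bind CACCC boxes. The sequences are those of RefSeq on GRCm38.p6, from 250 bases before to 50 after the gene's start, 5′ to 3′ on the gene's strand. Capitals mark CACCC or its reverse complement GGGTG.
Hoxd10 (chr2:74691641-74691940, plus strand): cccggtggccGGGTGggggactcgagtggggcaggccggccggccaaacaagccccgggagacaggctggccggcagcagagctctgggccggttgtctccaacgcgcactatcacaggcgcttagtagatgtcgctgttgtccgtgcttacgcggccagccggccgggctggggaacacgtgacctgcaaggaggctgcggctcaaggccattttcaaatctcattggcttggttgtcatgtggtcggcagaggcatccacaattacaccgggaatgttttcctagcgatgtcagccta
Hoxa13 (chr6:52260831-52261130, minus strand): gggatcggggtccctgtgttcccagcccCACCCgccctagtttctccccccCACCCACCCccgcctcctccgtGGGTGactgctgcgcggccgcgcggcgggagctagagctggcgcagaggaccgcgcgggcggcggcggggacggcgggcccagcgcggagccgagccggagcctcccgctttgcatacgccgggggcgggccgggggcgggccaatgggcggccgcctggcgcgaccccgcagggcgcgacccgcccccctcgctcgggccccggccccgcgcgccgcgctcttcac
Hoxd13 (chr2:74667975-74668274, plus strand): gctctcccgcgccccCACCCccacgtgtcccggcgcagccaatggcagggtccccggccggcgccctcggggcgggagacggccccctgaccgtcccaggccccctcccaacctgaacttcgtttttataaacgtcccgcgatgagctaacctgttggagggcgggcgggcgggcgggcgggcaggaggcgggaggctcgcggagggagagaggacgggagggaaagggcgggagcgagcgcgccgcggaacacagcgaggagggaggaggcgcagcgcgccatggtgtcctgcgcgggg
Hoxd10 held 1 match, on the opposite strand, Hoxa13 held 4, of which 2 overlap by a base, and Hoxd13 held 1. Of 23 promoters of 21 Hox members in the table, 15 held at least 1 match on either strand (65.2%), and of all 32851 promoters of the same length 57.5% did. The match is a description of these letters and not a site. Promoters of Hoxa4, Hoxb2, Hoxb3, Hoxb5, Hoxb6, Hoxb7, Hoxb9, Hoxb13, Hoxc5, Hoxc6 and Hoxc8 to Hoxc13 were not among the sequences available. Those members were therefore not searched for CACCC.

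Of the other posterior Hoxa genes, Hoxa9 differed upward like Hoxa13, and Hoxa10 and Hoxa11 did not. Hoxa10 and Hoxa11, which act in the lower reproductive tract and, for Hoxa11, in the kidney, differed by -0.12 (95% confidence interval -0.31 to 0.07) and -0.11 (95% confidence interval -0.33 to 0.12). Hoxa10 read 9.34, 9.51 and 9.56 on the Klf5-deleted arrays and 9.58, 9.505 and 9.67 on the controls. Hoxa11 read 8.95, 9.03 and 9.10 against 9.31, 9.11 and 8.98. Both groups of readings overlapped, and with arrays centred on the median of the housekeeping genes both differences were above 0, at 0.10 and 0.11. Hoxa9, a regulator of posterior and of blood cell identity, read 8.99, 9.29 and 9.08 against 8.97, 8.996 and 9.10 and differed by 0.10 (95% confidence interval -0.11 to 0.31), or by 0.0127 without Klf5-deleted 2, on which it was highest. Hoxa11 differed by -0.0184 without control 1 and Hoxa10 by -0.0533 without Klf5-deleted 1.

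The Hoxc genes from Hoxc4 to Hoxc10, a stretch picked out after the values were seen, all differed upward, by 0.30 to 0.47. Their readings ran from 6.36 to 8.71, and the filter on dim genes kept no Hoxc gene. Hoxc6, which acts in the thoracic trunk, mammary gland and limb, had the smallest adjusted p of all Hox genes. It read 7.97, 7.86 and 8.15 on the Klf5-deleted arrays and 7.59, 7.55 and 7.52 on the controls. The groups were well apart, with a difference of 0.44 (95% confidence interval 0.24 to 0.64, SE 0.08, adjusted p = 0.0509 by limma); with single arrays left out the adjusted p ran from 0.0612 to 0.165. Hoxc8, a gene of the thoracic trunk and its motor neurons, read 8.04, 8.16 and 8.71 against 7.51, 8.01 and 7.98. Hoxc9, which sets thoracic identity, read 7.49, 7.81 and 8.11 against 7.21, 7.46 and 7.46. In both, the groups were separated by less than 0.05, with the highest reading on Klf5-deleted 3 and the lowest on control 1. Hoxc10, a marker of lumbar and hindlimb level, read 7.52, 7.87 and 8.25 against 7.21, 7.56 and 7.50, with the same pair of arrays at the ends and an overlap of the groups. The differences were 0.47 for Hoxc8 (SE 0.20), 0.43 for Hoxc9 (SE 0.16) and 0.46 for Hoxc10 (SE 0.18), with adjusted p by limma of 0.347, 0.273 and 0.318.

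The average of these Hoxc readings moved with the skeletal muscle markers over the arrays, but Hoxc6 alone did not: its control reading was highest on control 1. Averaged over the 6 genes Hoxc4, Hoxc5, Hoxc6, Hoxc8, Hoxc9 and Hoxc10, deviations from the mean over all arrays were -0.00760, 0.145 and 0.468 on Klf5-deleted arrays 1, 2 and 3 and -0.373, -0.0631 and -0.170 on control arrays 1, 2 and 3. The 12 skeletal muscle markers deviated by -0.135, 0.234 and 0.962 on the Klf5-deleted arrays and by -0.755, 0.204 and -0.510 on the controls. Both were highest on Klf5-deleted 3 and lowest on control 1; their part in the Hoxc differences was not tested. Without Klf5-deleted 3 the differences of Hoxc8, Hoxc9 and Hoxc10 were 0.27 each and that of Hoxc6 was 0.36. The other 31 Hox genes deviated on average by -0.00244, 0.0794 and 0.0541 on the Klf5-deleted arrays and by -0.0575, -0.0694 and -0.00416 on the controls.

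**Figure D3:**
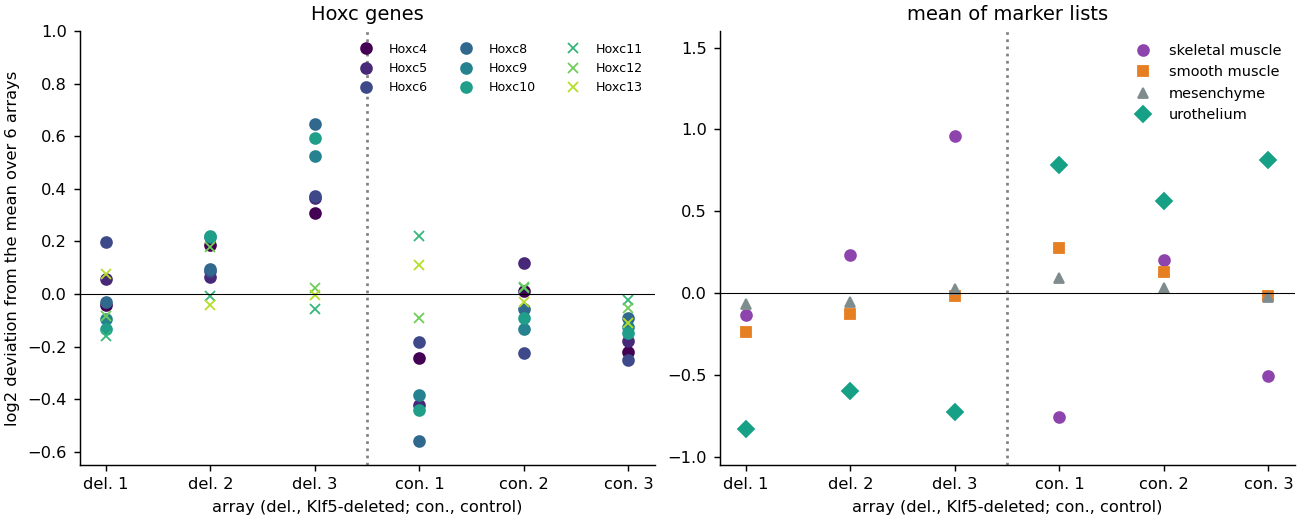
Log2 deviation from the mean over the 6 arrays (vertical axes) for each array (horizontal axes), for the 9 Hoxc genes at left (circles, Hoxc4 to Hoxc10; crosses, Hoxc11 to Hoxc13) and for the means of 4 marker lists at right. Klf5-deleted 3 is highest and control 1 lowest for the mean of Hoxc4 to Hoxc10 and for skeletal muscle, while urothelial markers separate the genotypes in the other direction.

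The 5′ end of the Hoxc cluster did not share that pattern. Hoxc11 read 7.74, 7.89 and 7.84 on the Klf5-deleted arrays and 8.12, 7.92 and 7.87 on the controls, with a difference of -0.15 (95% confidence interval -0.35 to 0.05), or -0.0746 without control 1. It was highest on control 1, the array on which its neighbours Hoxc8, Hoxc9 and Hoxc10 were lowest. Hoxc12 read 6.41, 6.68 and 6.52 against 6.41, 6.52 and 6.45 and differed by 0.08 (95% confidence interval -0.12 to 0.27), or by 0.00804 without Klf5-deleted 2. At the 3′ end, Hoxc4 and Hoxc5, which act in the neck and upper trunk, differed by 0.30 (SE 0.11) and 0.32 (SE 0.15), with adjusted p by limma of 0.275 and 0.38, and their groups overlapped. Hoxc5 differed by 0.193 without control 1.

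Among the anterior and central Hoxa genes, Hoxa5 had the largest difference of the 37 genes. Hoxa5, a gene of the neck, lung and diaphragm, read 8.13, 8.41 and 8.49 on the Klf5-deleted arrays and 7.57, 7.96 and 8.06 on the controls. The groups did not overlap, with control 1 lowest, and the difference was 0.48 (95% confidence interval 0.14 to 0.82, SE 0.15, adjusted p = 0.19 by limma), or 0.33 without control 1. Hoxa2, which sets the identity of the second pharyngeal arch, read 7.12, 7.18 and 7.29 against 6.69, 6.90 and 7.03 and differed by 0.32 (SE 0.10, adjusted p = 0.194 by limma). Hoxa3 and Hoxa6 likewise did not overlap between groups, with differences of 0.26 and 0.24, or 0.165 for Hoxa3 without Klf5-deleted 3. Hoxa4 and Hoxa7 overlapped and differed by 0.05 and 0.12, so that genes without overlap did not form an unbroken stretch of the cluster.

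Of the 4 differences farthest below 0, Hoxb1, Hoxb2 and Hoxb13 held 3 and Hoxc11 the other. Hoxb1, a gene of the hindbrain, read 7.995, 8.01 and 8.18 on the Klf5-deleted arrays and 8.10, 8.24 and 8.30 on the controls. Hoxb2, also of the hindbrain, read 8.09, 8.16 and 8.21 against 8.15, 8.33 and 8.40. Both overlapped between groups and differed by -0.15 (95% confidence interval -0.35 to 0.04) and -0.14 (95% confidence interval -0.34 to 0.05), or by 0.06 and 0.08 with arrays centred on the median of the housekeeping genes. Without control 3 Hoxb2 differed by -0.0861. Hoxb3 to Hoxb7 differed by -0.09 to 0.06. Hoxb5, the member of this cluster with the largest SD over all arrays and a gene of enteric neuron and lung development, read 7.60, 7.59 and 7.91 against 7.49, 7.62 and 7.87, with the highest reading of each group on Klf5-deleted 3 and control 3, and differed by 0.04. Hoxb4, active in blood stem cells, read 6.85, 7.21 and 7.03 against 6.81, 6.97 and 7.11 and differed by 0.06. Hoxb9, which patterns ribs, was the single Hoxb gene without overlap. It read 8.81, 8.70 and 8.64 against 8.41, 8.45 and 8.50, with a difference of 0.27 (95% confidence interval 0.10 to 0.43, SE 0.07, adjusted p = 0.13 by limma). All 4 members of group 9, Hoxa9, Hoxb9, Hoxc9 and Hoxd9, differed upward, by 0.08 to 0.43. Of these, 2 were higher without overlap, against 8.67% of all genes. Group 9 was not alone in this: all measured members of groups 4, 5 and 12 differed upward, and 2 of 3 in group 6 did not overlap.

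At the 3′ end of the Hoxd cluster, Hoxd1, Hoxd3, Hoxd4 and Hoxd8 all overlapped between groups. Hoxd3 differed by -0.00277 (95% confidence interval -0.18 to 0.18) and Hoxd8 by -0.02 (95% confidence interval -0.31 to 0.28), and both were above 0 with arrays centred on the median of the housekeeping genes, at 0.21 and 0.20. Hoxd4 differed by 0.20 (95% confidence interval -0.04 to 0.44), or 0.0991 without control 2, and Hoxd1 by 0.11 (95% confidence interval -0.07 to 0.28), or 0.0652 without control 1.

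MicroRNA genes lie within the Hox clusters, and their products are known to bind Hox transcripts. In the order of RefSeq genes on GRCm38.p6, Mir10a lies between Hoxb5 and Hoxb4 and within the span of Hoxb3. Mir10b lies within the spans of Hoxd3 and Hoxd4. Mir196a-1 lies between Hoxb13 and Hoxb9, Mir196a-2 between Hoxc10 and Hoxc9 and Mir196b between Hoxa9 and Hoxa10. The mature 5p forms, from RefSeq, are shown with the seed, bases 2 to 8, in capitals because genes in different clusters share a seed.
mmu-miR-10a-5p: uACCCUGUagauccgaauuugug
mmu-miR-10b-5p: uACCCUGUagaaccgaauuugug
mmu-miR-196a-5p: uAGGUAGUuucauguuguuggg
mmu-miR-196b-5p: uAGGUAGUuuccuguuguuggg
Counted from the 5′ end, miR-10a and miR-10b differ by U12A, and miR-196a and miR-196b by A12C, both outside the seed. The array features cover the precursor genes and do not measure these mature forms. None of the 9 measured non-coding genes of the clusters passed. Mir10b read 4.35, 4.495 and 4.70 on the Klf5-deleted arrays and 4.33, 4.26 and 4.39 on the controls, with overlap. Mir10a, Mir196a-1, Mir196a-2, Mir196b and Mir615 differed by -0.05 to 0.11. Hottip, the long non-coding RNA next to Hoxa13, read 8.04, 7.90 and 7.94 against 7.67, 7.44 and 7.77. It did not overlap between groups and differed by 0.33 (SE 0.10, adjusted p = 0.174 by limma), the same direction as Hoxa13.

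Proteins that bind DNA together with Hox factors were read as a list of 9, of which 8 were measured. None passed, 7 differed upward, and the median was 0.124. The largest differences were those of Meis1, at 0.29 (SE 0.10, adjusted p = 0.246 by limma), and Pknox2, at 0.23 (SE 0.08, adjusted p = 0.273 by limma). Meis1 read 12.66, 12.60 and 12.44 on the Klf5-deleted arrays and 12.35, 12.11 and 12.39 on the controls, and did not overlap. Of 22 Polycomb and Trithorax genes, which silence or maintain Hox clusters, none passed and the median was 0.0169; Cbx7 and Bmi1 had the largest differences, -0.34 and 0.27. Of 14 axial patterning factors that act before Hox genes none passed, with a median of 0.0249. Acvr2a, a receptor for the trunk-to-tail signal Gdf11, differed by 0.25 and Gdf11 itself by 0.17 (adjusted p = 0.279 and 0.311 by limma). The 15 measured genes that flank the clusters had no member past the threshold and a median of 0.0725, with Mtx2, beside the Hoxd cluster, at 0.29 (SE 0.11) and Skap2, beside Hoxa, at -0.13 (SE 0.07).

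Retinoic acid is the classical inducer of Hox transcription, and among the 7 lists around the Hox genes its pathway was the only one with members past the threshold. Of 16 genes, 3 rose and none fell, against 0.386% higher and 1.59% lower among all genes, and the list median was 0.0683. The 3 were Aldh1a2, which makes retinoic acid, Crabp2, which carries it, and the receptor gene Rxrg. The lists were chosen with earlier results of these data known, and the part of this pathway in the Hox differences was not tested. Aldh1a2 read 11.87, 11.99 and 11.68 on the Klf5-deleted arrays and 11.28, 11.19 and 11.18 on the controls, a difference of 0.63 (SE 0.09, adjusted p = 0.0173 by limma). It did not pass when control 1 or 3, or Klf5-deleted 1 or 2, was left out (adjusted p from 0.0552 to 0.0909 by limma). All 3 Klf5-deleted arrays lay above all controls. Wt1, the mesothelial marker that rose, was likewise higher on the Klf5-deleted arrays, at 10.06, 10.19 and 10.10 against 9.45, 9.78 and 9.51. Of the other mesothelial markers Lrrn4 differed by 0.39, and Msln, Krt19 and Upk3b went the other way, by -1.42, -1.46 and -0.32. The mean of that list was lower on the Klf5-deleted arrays, at 9.64 to 9.74 against 10.02 to 10.28. Krt19 and Upk3b are also in the urothelial list, all 15 members of which differed downward. The part of mesothelium in the rises of Aldh1a2 and Wt1 was not tested. Crabp2 read 9.81, 9.85 and 9.82 against 9.34, 9.16 and 9.17 and rose by 0.60 (SE 0.07, adjusted p = 0.00826 by limma). It passed with any 1 array left out. Rxrg read 7.73, 8.23 and 8.39 against 6.91, 7.37 and 7.08 and rose by 1.00 (SE 0.18, adjusted p = 0.0456 by limma). Its adjusted p by limma was 0.106 to 0.166 when control 1 or 3, or Klf5-deleted 2 or 3, was left out. Its lowest reading was on control 1 and its highest on Klf5-deleted 3, as for the skeletal muscle markers, whose part in this rise was not tested. The receptor gene Rarb and the retinol dehydrogenase gene Rdh10 differed by 0.59 and 0.38 without overlap, and neither passed (adjusted p = 0.0745 and 0.0801 by limma). Crabp1, a second carrier, differed by 0.83 with overlap, and the receptor gene Rxra by -0.21 without overlap (adjusted p = 0.29 and 0.286 by limma).

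Other transcription factors that mark position in the caudal trunk were read as a list of 20, of which 17 were measured. None passed, 12 differed upward, and the median was 0.149. Eya1 read 9.02, 9.33 and 9.91 on the Klf5-deleted arrays and 8.21, 8.74 and 8.34 on the controls, a difference of 0.99 (SE 0.23, adjusted p = 0.0962 by limma) without overlap. Its readings were highest on Klf5-deleted 3 and lowest on control 1, as were the skeletal muscle markers, a tissue in which Eya1 also acts; their part in this difference was not tested. Tbx15 differed by 0.77 (SE 0.31) with overlap. Tbx18, a gene of the mesenchyme around the ureter, had the smallest adjusted p of the list. It read 10.31, 10.04 and 10.22 against 9.77, 9.33 and 9.22, without overlap, and differed by 0.75 (SE 0.15, adjusted p = 0.0568 by limma). Its highest reading was on Klf5-deleted 1 and its lowest on control 3. It passed without control 1, among brighter genes alone and with arrays centred on the median of the housekeeping genes (adjusted p = 0.0181, 0.0408 and 0.00439 by limma).

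**Figure D4:**
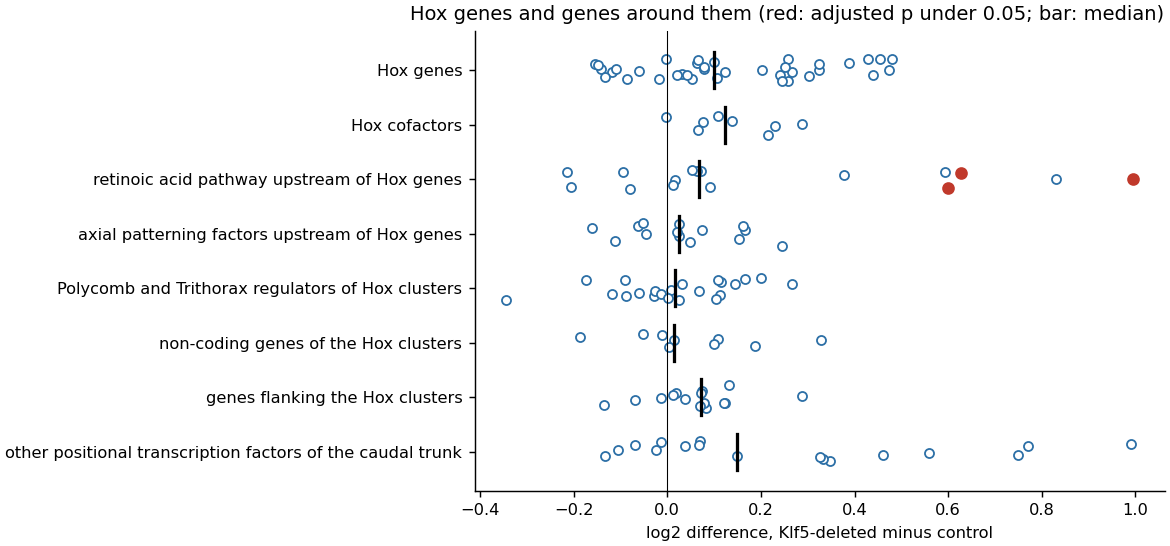
Log2 difference, Klf5-deleted minus control (horizontal axis), of each Hox gene and of each measured gene in 7 lists around them (rows; vertical scatter within a row carries no value), with vertical bars at the medians. Filled red points mark the 3 genes with an adjusted p under 0.05 by limma, all in the retinoic acid list; the Hox median of 0.0997 and the cofactor median of 0.124 lie close together.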

How the data were processed

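The authors deposited log2 expression values made with RMA, per the submitters' processing notes. No RMA version, build or probe annotation is given in the sources used here, and the log2 scale was inferred from the values (3.24 to 14.6). RMA equalises array distributions and compresses differences of dim features. Of 35557 features, 21789 had 1 symbol, 1621 several and 12147 none; for 999 genes with several features the brightest was used, leaving 19938 genes. Groups were compared two-sided in limma 3.58.1 (R 4.3.3; lmFit, eBayes), adjusting p by Benjamini-Hochberg over all genes, threshold 0.05. Differences are Klf5-deleted minus control, with limma's SE and intervals. The procedure was tested on simulated data. Arrays of a group correlated at 0.987 to 0.996 across genes; the number of arrays limits the precision. Values on all arrays are given for the 3 largest Hox differences in each direction, groups 9 to 13 and the most variable genes of each cluster, and lists by members that passed, or else up to 2 with the largest difference; Hoxc6, Rarb, Rdh10, Crabp1, Rxra, Tbx18 and the further microRNA genes were named after their values were seen. The members and lists were chosen with earlier results of these data known. Alternatives were other scalings, a filter on dim genes, the mean of features, a variance trend, a replicate block and leaving out each array.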

Additional observations from a re-analysis of the deposited data

How the results depend on the processing

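No Hox gene fell past the threshold under any alternative tried, and none rose except with the 2 housekeeping scalings. Centring on the housekeeping median gave 15 Hox rises, 1948 genes in all of which 1697 rose, a Hox median of 0.317, and Klf5 at -0.37 (adjusted p = 0.0633 by limma). It also turned Hoxa10, Hoxa11, Hoxb1, Hoxb2, Hoxb6, Hoxb7, Hoxb13, Hoxc11, Hoxd3 and Hoxd8 to 0.0998, 0.108, 0.0635, 0.0755, 0.157, 0.130, 0.0833, 0.0685, 0.214 and 0.20. The shift by housekeeping deviations, chosen after seeing the data, gave 1 Hox rise and turned Hoxd3 to 0.00775. Centring on array medians gave 47 rises over all genes and turned Hoxc13 to -0.00531. Testing brighter genes alone left 12 Hox genes and 239 passing genes, 171 of them falls, and no Hoxc gene. Against 395 genes in the deposited scale (77 rises, 318 falls), leaving out 1 array gave 141 to 349 genes, 17 to 64 rises and 124 to 285 falls, and Hox medians of 0.0838 to 0.154. The smallest counts came without Klf5-deleted 1. Klf5 lay between -0.68 and -0.51, with an adjusted p by limma of 0.0167 without control 2 and 0.0847 to 0.156 without any other array. Signs near 0 turned when 1 array was left out: Hoxb3 ran from -0.00617 (without control 1) to 0.0704, Hoxb4 from -0.0258 (without Klf5-deleted 2; -0.0129 without control 1) to 0.154, Hoxb5 from -0.0626 (without Klf5-deleted 3; -0.0408 without control 1) to 0.146, Hoxc13 from -0.0283 (without control 3; -0.0121 without Klf5-deleted 1) to 0.0811, Hoxd3 from -0.0487 to 0.0504 (without Klf5-deleted 2; 0.0420 without control 3) and Hoxd8 from -0.155 to 0.0740 (without Klf5-deleted 3; 0.0308 without Klf5-deleted 1 and 0.0456 without control 1). Deviations of same-numbered samples from their group means correlated at 0.00915, 0.0313 and 0.0787. Klf5-deleted 2 and 3 correlated best with the control of the same number, and Klf5-deleted 1 with control 2. With so few arrays these values cannot tell whether same-numbered samples shared more than a number. With the replicate number as a block 110 genes passed, 5 rises and 105 falls, and Klf5, Aldh1a2, Crabp2 and Rxrg did not (adjusted p = 0.137, 0.0681, 0.0614 and 0.0535 by limma). Where a value moved and no cause is given, the cause was not tested.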
